A study of Mus musculus with 5 samples.

Results

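The keratins analysed here were 10 genes, taken by name from the 19938 genes that could be named on the arrays: *Krt8*, *Krt18*, *Krt7*, *Krt19* and *Krt20*, which mark luminal and other simple epithelia, *Krt5*, *Krt14* and *Krt15*, which mark the basal layer of stratified epithelia, and *Krt17* and *Krt6a*, which are induced by wounding and stress. All 10 were measured, each by 1 probe set, and the choice was by name, without a threshold on any value, although earlier results of these data were known. They were measured in 6DT1 cells, a highly metastatic mouse mammary carcinoma line, with 5 Affymetrix Mouse Gene 1.0 ST arrays of a single colour, 1 per line. Lines H3 and H4 carried pLKO.1 lentiviral hairpins against *Arid4b* that lowered ARID4B protein, to 0.19 and 0.15 of the scrambled line by densitometry in the labels, and formed the knockdown cohort of 2 lines. The 3 lines of the control cohort were line H5, whose *Arid4b* hairpin left the protein at 1.02, the line with a scrambled hairpin in the same vector, and untransduced cells, at 1.09. The 4 transduced lines were pooled clones selected with puromycin, and the untransduced cells were not selected. As every line was arrayed once, p-values reflect only how far lines differ from one another, some of which may be technical, and precision is limited by having 5 arrays.

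Keratins are the intermediate filament proteins of epithelial cells, and a filament is built from pairs of an acidic type I and a basic type II chain. In the mammary gland the inner luminal cells make the pair K8 and K18 together with K7 and K19, while the outer basal or myoepithelial cells make K5 and K14. Breast carcinomas are commonly described as luminal or basal from these proteins. Of the 10 genes, 6 encode type I and 4 encode type II chains. *Krt18* is the one type I gene that lies in the type II cluster, beside its partner *Krt8*.

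The windows before the transcription starts of *Krt8* and *Krt18*, the luminal pair that was bright on every array, and of *Krt5*, a basal keratin that was dim on every array, are shown because all 3 lie on the same chromosome. RefSeq promoter entries (build GRCm38.p6) were found for 6 of the 10 genes, and *Krt15*, *Krt17*, *Krt19* and *Krt6a* were not matched. The 250 bases before each start are given 5′ to 3′ on the strand of the gene, at chr15:102004343-102004592 (minus strand) for *Krt8*, chr15:102027966-102028215 (plus strand) for *Krt18* and chr15:101712906-101713155 (minus strand) for *Krt5*, with the E box CAGGTG or its reverse complement in capitals.
Krt8: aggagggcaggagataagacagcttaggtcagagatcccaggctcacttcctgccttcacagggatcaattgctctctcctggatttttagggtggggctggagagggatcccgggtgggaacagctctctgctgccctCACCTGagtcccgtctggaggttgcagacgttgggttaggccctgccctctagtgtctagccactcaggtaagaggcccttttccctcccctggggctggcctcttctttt
Krt18: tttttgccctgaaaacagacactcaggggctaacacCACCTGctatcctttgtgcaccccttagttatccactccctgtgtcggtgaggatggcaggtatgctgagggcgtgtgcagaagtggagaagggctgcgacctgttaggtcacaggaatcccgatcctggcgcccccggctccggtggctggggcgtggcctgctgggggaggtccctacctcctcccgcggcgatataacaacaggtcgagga
Krt5: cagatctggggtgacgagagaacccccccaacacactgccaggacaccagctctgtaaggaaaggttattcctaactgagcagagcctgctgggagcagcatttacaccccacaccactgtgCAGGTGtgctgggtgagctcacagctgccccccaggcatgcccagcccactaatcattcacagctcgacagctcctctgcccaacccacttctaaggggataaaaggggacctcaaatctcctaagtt
The *Krt8* and *Krt18* starts lay 23874 bases apart on opposite strands. Each of the 3 windows held 1 E box, the letters to which repressors of the Snail and Zeb families bind, and 20.2% of 32851 promoter windows of 300 bases held one on either strand. The TATA box TATAAA was found at the listed start of *Krt8*, where it crosses into the transcript and is therefore not in capitals, and in neither of the other windows, against 13.6% of all windows. The GC box GGGCGG, in 35.7% of all windows, and the AP-1 site TGANTCA, in 7.81%, were in none of the 3. These matches are descriptions of letters.

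*Krt8* and *Krt18* were bright on every array, and the 7 genes *Krt7*, *Krt20*, *Krt5*, *Krt14*, *Krt15*, *Krt17* and *Krt6a* were dim on every array. The log2 expression of *Krt8* (probe set 10432918) ran from 11.81 to 12.26 over the 5 lines and that of *Krt18* (10427075) from 11.57 to 11.71. The deposited table gives no detection call, so genes that a mammary line is not expected to use served as a loose reference. Brightness also depends on the sequence of a probe, and so none of these values ranks one keratin above another. The 95th percentile of 1027 olfactory receptor genes was 6.12 in H3 and 5.88 to 5.91 in the other lines. *Krt20* and *Krt5* lay below it in all 5 lines and *Krt17* in all but 1. *Krt7*, *Krt14*, *Krt15* and *Krt6a* lay above it in all 5, but within the means of 13 hair keratins, 4.77 to 7.75. The hair keratins were a second reference, chosen after the values had been seen. Their median was 6.01, below the means of *Krt14* (6.05), *Krt15* (6.29), *Krt6a* (6.36) and *Krt7* (6.76). *Krt19* had a mean of 7.88, above that of every hair keratin, although its lowest line, at 7.26, lay below *Krt33b*, the brightest of them, at 7.65 to 8.01. Only *Krt8* and *Krt18* lay above both references in all 5 lines.

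Other markers of the epithelial label were unevenly present. *Epcam*, an epithelial adhesion protein, lay at 5.61 to 5.75, below the olfactory reference in every line. *Cdh1*, which encodes E-cadherin, lay at 6.05 to 6.16, above that reference in every line. The leukocyte marker *Cd3e*, at 6.16 to 6.48, and the fibroblast and endothelial markers *Pdgfra*, *Thy1* and *Cdh5* also lay above that reference in every line. The *Cdh1* values were within the means of the hair keratins, 4.77 to 7.75. *Vim*, the intermediate filament protein of mesenchymal cells, lay at 12.54 to 12.67. The luminal regulator *Gata3* lay at 9.81 to 10.01. The 5 myoepithelial markers *Trp63*, *Acta2*, *Cnn1*, *Myh11* and *Oxtr* lay between 5.70 and 6.64 in all lines, in the range of the dim keratins. All of them but *Oxtr* lay above the olfactory reference in every line. Of 11 measured leukocyte markers, *Cd14*, a lipopolysaccharide co-receptor of myeloid cells, lay at 8.10 to 8.69 and the others between 4.53 and 6.48, where *Ptprc*, the general leukocyte marker, had at most 5.15. The 12 fibroblast and endothelial markers lay between 3.98 and 7.79, with the collagen gene *Col1a1* the brightest, at 7.34 to 7.79. The mean level over the leukocyte list was 5.74 in H3, 5.68 in H4 and 5.63 to 5.67 in the control lines, and over the fibroblast and endothelial list 5.96, 5.84 and 5.78 to 5.82.

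**Figure D1:**
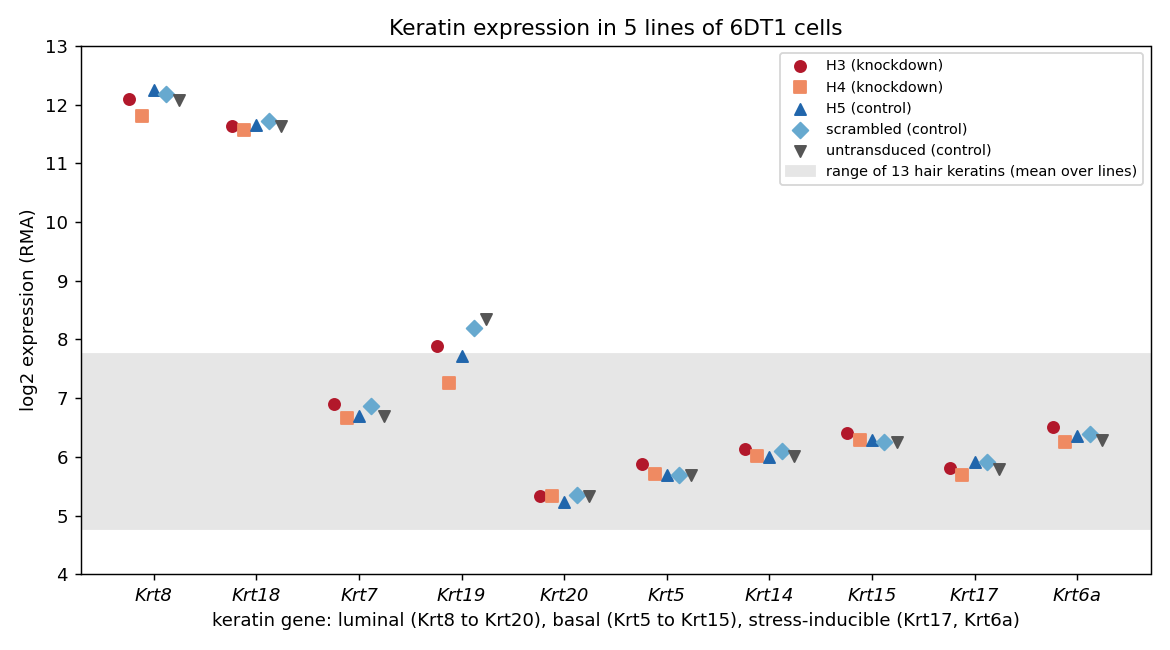
Log2 expression (vertical axis) of the 10 keratins (horizontal axis) with a point for every line and array, and the range of the mean levels of 13 hair keratins in grey. *Krt8* and *Krt18* lie near 12 in all lines, *Krt19* spreads from 7.26 to 8.35, and the other 7 genes lie inside the grey range in every line.

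*Arid4b* itself was lower in both knockdown lines, at 6.88 in H3 and 7.35 in H4 whereas H5 had 8.24, the scrambled line 8.34 and untransduced cells 8.36. None of the 10 keratins passed the test of the cohorts. With limma 0 of 10 were higher and 0 were lower below the unadjusted p of 0.05 that the study used, and an unmoderated equal-variance test also called 0. Over all genes 4.34% were higher and 7.61% lower at that threshold. After adjustment for multiple testing no keratin and no other gene passed 0.05, and adjusted p values of the keratins began at 0.48. The median log2 difference of the 10 genes, knockdown minus control, was 0.03, as it was over all genes. The 2 cohorts overlapped for 9 of the 10. *Krt5* was the exception, with both knockdown lines above all control lines, and 13.9% of all genes lay that way. No keratin lay below all control lines in both knockdown lines, against 13.5% of all genes.

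*Krt8*, which encodes the type II chain of the luminal pair, had 12.10 (H3) and 11.81 (H4) in the knockdown lines, while H5 had 12.26, the scrambled line 12.19 and untransduced cells 12.09. H4 was the lowest line, and H3 lay between the control lines. The log2 difference was -0.22 (standard error 0.11, 95% interval -0.51 to 0.07, adjusted p = 0.48 from limma), a fold of 0.857. With the array medians subtracted *Krt8* passed the unadjusted threshold at -0.27, and it passed without H3 at -0.37, a fit in which H4 alone stands for the knockdown. Without H4 the difference was -0.08.

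*Krt18*, which encodes the partner of K8, had 11.64 (H3) and 11.57 (H4) in the knockdown lines and 11.65 (H5), 11.71 (scrambled) and 11.63 (untransduced) in the controls. The 5 values spanned 0.14, and H4 was again the lowest. The log2 difference was -0.06 (standard error 0.05, 95% interval -0.19 to 0.08), which bounds the fold between 0.875 and 1.05. The centred profiles of the 2 genes over the 5 lines differed by a root mean square of 0.12.

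*Krt19* varied most among the 10 genes. It encodes the smallest keratin, a luminal chain also used as a marker of carcinoma cells in blood. Its log2 expression (probe set 10391036) was 7.89 (H3) and 7.26 (H4) in the knockdown lines and 7.72 (H5), 8.20 (scrambled) and 8.35 (untransduced) in the controls. H4 was again the lowest line, but H3 lay above H5, so the cohorts overlapped. The control lines had a mean of 8.09 ± 0.33 (SD, n = 3 lines), and their range of 0.63 was as wide as the gap of 0.63 between H3 and H4. The log2 difference was -0.52 (standard error 0.28, 95% interval -1.25 to 0.22, adjusted p = 0.491 from limma), a fold of 0.698 that the data placed only between 0.419 and 1.16. It was -0.83 without H3, -0.20 without H4, -0.29 with array weights and -0.39 without the untransduced line, and it missed the threshold in each of these fits. Among the 2 hairpin-carrying control lines and the untransduced cells, *Krt19* was highest in the cells without vector or selection.

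*Krt7* and *Krt20* complete the luminal group. *Krt7*, which encodes a type II chain of simple epithelia and ducts, had 6.89 (H3) and 6.67 (H4) against 6.70 (H5), 6.86 (scrambled) and 6.69 (untransduced). Its log2 difference was 0.03 (95% interval -0.22 to 0.28). *Krt20*, which belongs to intestinal and urothelial surface cells, lay between 5.22 and 5.35, with the same deposited value in H3, H4 and the untransduced line, and its log2 difference was 0.03 (95% interval -0.12 to 0.18).

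**Figure D2:**
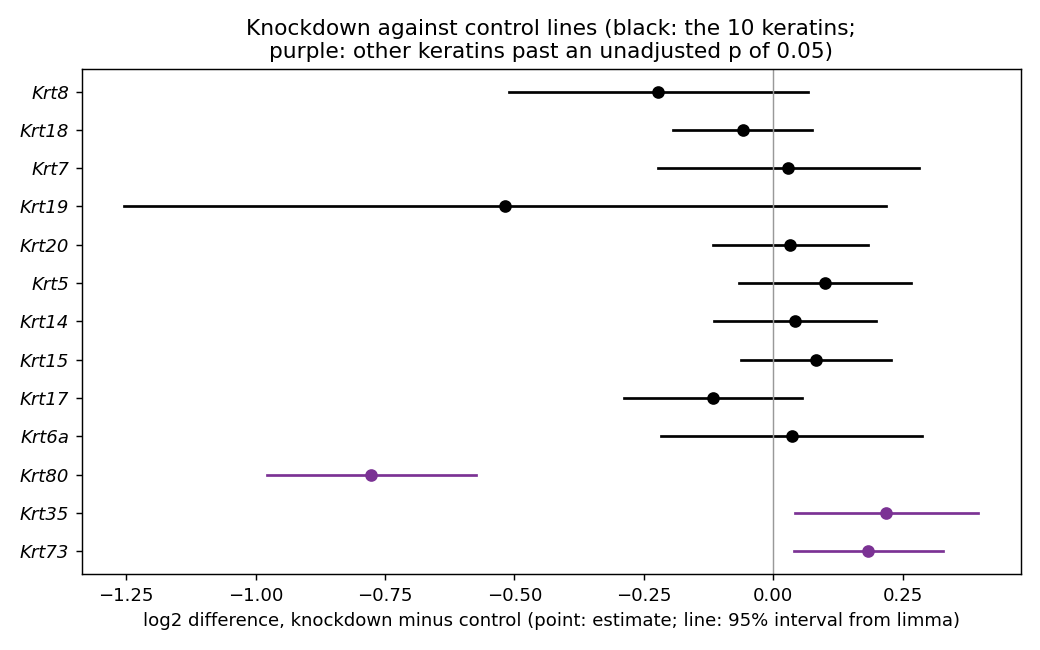
Log2 difference of the knockdown from the control lines (horizontal axis; points are limma estimates and lines their 95% intervals) for the 10 keratins in black and the 3 other keratins past an unadjusted p of 0.05 in purple. All 10 black intervals cross 0, the widest being that of *Krt19* from -1.25 to 0.22, while that of *Krt80* runs from -0.98 to -0.58.

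The basal keratins stayed at their dim levels in both cohorts. *Krt5*, which encodes the type II chain of basal cells, had 5.88 in H3 and 5.71 in H4 against 5.70 in each of the 3 control lines, which share the same deposited value. H3 was the only line set apart, by 0.18. Its log2 difference was 0.10 (standard error 0.06, 95% interval -0.07 to 0.27). *Krt14*, the type I partner of *Krt5*, had 6.13 (H3) and 6.02 (H4) against 5.99 (H5), 6.09 (scrambled) and 6.02 (untransduced), and a log2 difference of 0.04 (95% interval -0.11 to 0.20). *Krt15*, a type I chain of basal cells and of hair follicle stem cells, had 6.41 (H3) and 6.28 (H4) against 6.28 (H5), 6.26 (scrambled) and 6.25 (untransduced), and a log2 difference of 0.08 (95% interval -0.06 to 0.23). *Krt5* and *Krt15* had the 2 most alike profiles of the 10 genes, with a root mean square difference of 0.02. Both varied little, over ranges of 0.18 and 0.16, and such differences are not scaled by range.

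The stress-inducible keratins gave values of the same kind. *Krt17*, a type I chain of regenerating and basal-like epithelium, had 5.81 (H3) and 5.70 (H4) against 5.91 (H5), 5.91 (scrambled) and 5.79 (untransduced). Its log2 difference was -0.12 (standard error 0.06, 95% interval -0.29 to 0.05, adjusted p = 0.491 from limma), and H3 lay between the control lines. It was -0.16 and passed the unadjusted threshold with the array medians subtracted and after another quantile normalization. *Krt6a*, a type II chain of wounded epidermis, had 6.52 (H3) and 6.25 (H4) against 6.36 (H5), 6.40 (scrambled) and 6.28 (untransduced), and a log2 difference of 0.04 (95% interval -0.22 to 0.29). *Krt6a* has a near-identical neighbour in *Krt6b*, and *Krt14*, *Krt16* and *Krt17* are also close in sequence, so that probe sets of these genes may share signal.

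Dim genes in general were raised on the H3 array, and so were most of the dim keratins. *Krt17* was not, with 5.81 in H3 against a control mean of 5.87. Between the lowest and the highest mean of the 7 dim keratins, 5.32 and 6.76, lay 5285 genes, whose median log2 difference from the control mean was 0.15 in H3 and 0.01 in H4. The 7 keratins had medians of 0.14 in H3 and -0.01 in H4. H3 was the highest of the 5 lines for 5 of the 7 and for 72.6% of the genes in that range. In this range 15.9% of genes had both knockdown lines above all control lines, as *Krt5* had, and 3.29% had both below. At the unadjusted threshold 3.6% of the genes in the range were higher and 1.65% lower, 5.24% in all, against 0 of the 7 keratins. Without H4, where H3 alone stands for the knockdown, *Krt5* (0.18) and *Krt15* (0.15) passed the unadjusted threshold. The part of this shift in the values of the dim keratins was not tested. For *Krt8*, *Krt18* and *Krt19* H3 was not the highest line. H4 was the lowest line of all 3, as it also was of the dim *Krt7*, *Krt17* and *Krt6a*. H3 lay above H4 by 0.07 in *Krt18*, 0.29 in *Krt8* and 0.63 in *Krt19*. The array medians over all probe sets were 6.35 in H3 and 6.24 in H4.

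**Figure D3:**
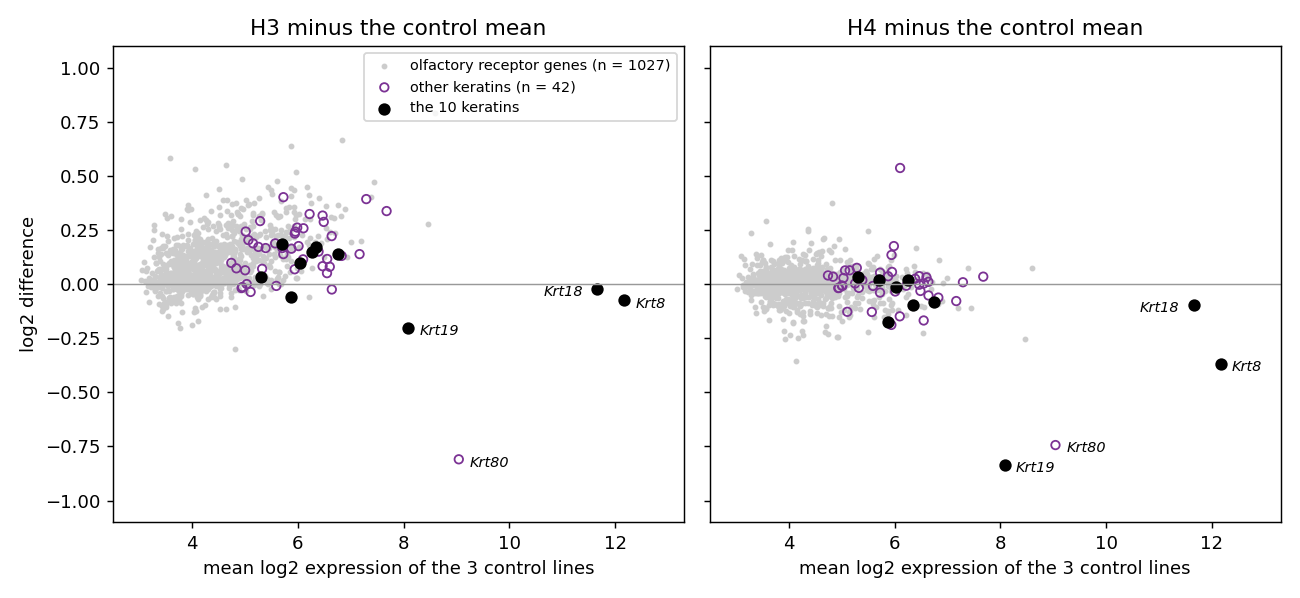
Log2 difference of H3 (left) and H4 (right) from the mean of the 3 control lines, against that mean, for the 10 keratins (black), the 42 other keratins (purple rings) and 1027 olfactory receptor genes (grey). On the H3 array most dim keratins and olfactory receptor genes lie above 0, with medians of 0.14 and 0.07, whereas in H4 they lie around 0, and *Krt80* lies near -0.8 in both lines.

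Outside the 10 genes, *Krt80* was the only one of 42 other keratins that was lower at the unadjusted threshold, and the only one with both knockdown lines below all control lines. *Krt80* encodes a type II keratin that is found near desmosomes in several epithelia. Its log2 expression (probe set 10432682) was 8.23 (H3) and 8.30 (H4) in the knockdown lines and 8.99 (H5), 8.98 (scrambled) and 9.16 (untransduced) in the controls. The log2 difference was -0.78 (standard error 0.08, 95% interval -0.98 to -0.58, adjusted p = 0.173 from limma), a fold of 0.584. The difference lay between -0.82 and -0.69 and passed the unadjusted threshold in all 13 alternative fits. It did not pass the adjusted threshold.

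Of the 42 other keratins, 2 were higher, 1 was lower and 39 missed the unadjusted threshold (limma), where 4.34% of all genes were higher and 7.61% lower, and 0 passed once adjusted over all genes. The 2 higher ones were the hair keratin *Krt35* (log2 difference 0.22, standard error 0.07) and *Krt73* (0.18, standard error 0.05), a type II keratin of the inner root sheath, both dim genes with H3 as the highest line. Neither passed without the untransduced line or without H5. In 5 of the 42 both knockdown lines exceeded every control line, as in 13.9% of all genes. The median over the 42 was 0.07, against 0.03 over all genes and 0.08 over the 5285 genes in the level range of the dim keratins. Without H4 20 of the 42 were higher, without H3 1 was and without the scrambled line 3 were, and H3 was the highest line for 32 of them. Apart from *Krt80* the log2 differences ran from -0.08 to 0.40.

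**Figure D4:**
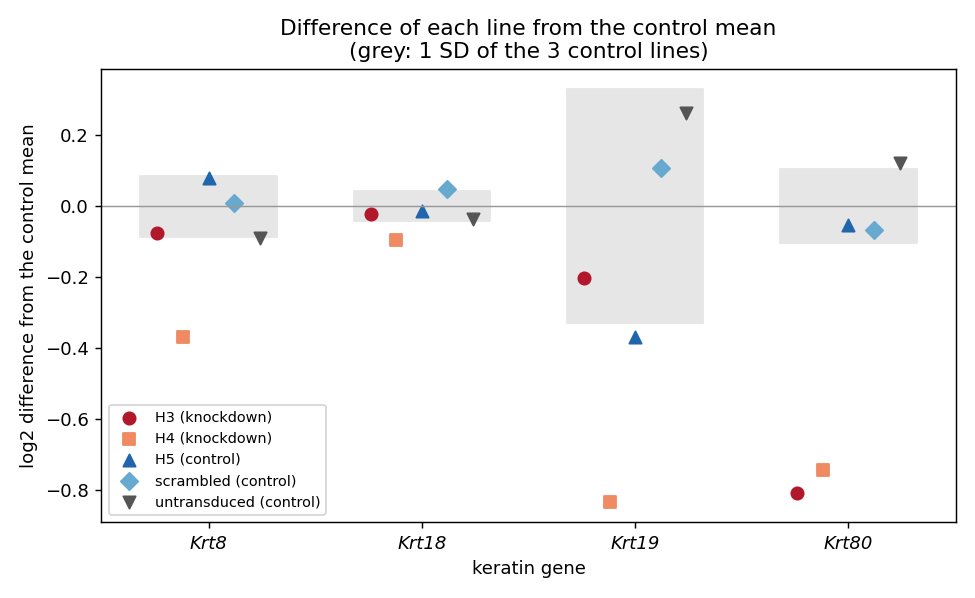
Log2 difference from the control mean (vertical axis), with a point for every line, for *Krt8*, *Krt18*, *Krt19* and *Krt80*, with 1 SD of the control lines in grey. For *Krt80* both knockdown lines lie below all control lines, at 8.23 and 8.30 on the log2 scale, while for *Krt8*, *Krt18* and *Krt19* only H4 does.

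Desmosomes and hemidesmosomes anchor keratin filaments to cell contacts and to the matrix. Of 22 measured genes of these junctions and of keratin linkers, 1 was higher, 2 were lower and 19 did not pass, near the 4.34% and 7.61% of all genes, with a median log2 difference of 0.05. *Ppl*, which encodes the linker periplakin, had a log2 difference of -0.47 (standard error 0.17), with 7.71 in H3 and a value in H4 that was also below the control lines, at 8.07 to 8.53. *Cd151*, a tetraspanin of hemidesmosomes, had -0.29 (standard error 0.10), and *Dsp*, which encodes the desmosomal linker desmoplakin, had 0.17 (standard error 0.05), at 10.38 in both knockdown lines against 10.16 to 10.27. The count of lower genes was 0 without H5, with array weights and with the unmoderated test, and 1 without H3 or without H4. The higher call was lost without H3, H5 or the untransduced line. It was also lost with the trend and robust options, the array medians subtracted, the filter on low values, array weights or puromycin as a covariate.

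In the lists of mammary cell identity 1 luminal and 2 basal genes passed the unadjusted threshold, at which 4.34% of all genes were higher and 7.61% lower. Of 25 measured luminal genes 1 was higher and none was lower, namely *Foxa1*, a luminal transcription factor, at 0.23 (standard error 0.07) and at dim levels of 6.12 to 6.48. Of 23 measured basal and myoepithelial genes, 1 was higher, *Egfr*, which encodes the epidermal growth factor receptor, at 0.45 (standard error 0.15), and 1 was lower, *Lamb3*, a chain of the basement membrane laminin to which hemidesmosomes bind. *Lamb3* had 7.42 (H3) and 7.09 (H4) against 8.05 (H5), 8.38 (scrambled) and 8.50 (untransduced), a log2 difference of -1.05 (standard error 0.18, adjusted p = 0.267 from limma). The median log2 difference was 0.08 over the luminal and 0.06 over the basal list. It was 0.03 over all genes and 0.08 over the 5285 genes in the level range of the dim keratins. Without H4 12 luminal and 7 basal genes were higher. No luminal gene was higher in the fits that lacked a control line, and no basal gene was higher without the scrambled or the untransduced line, with the array medians subtracted, with the unmoderated test or with array weights. The count of lower basal genes was 1 or 2 in every fit that lacked a line.

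The shares of all genes, 4.34% higher and 7.61% lower, also stand beside the remaining lists, whose counts were 0 to 2. Of 28 transcription factors listed here as possible regulators of keratin genes, 1 was higher, *Foxa1*, and 1 was lower, *Sp1*, which binds GC boxes. *Sp1* was at -0.24 (standard error 0.05), with 9.22 in H3 and 9.14 in H4 against 9.40 to 9.44. *Klf5*, an epithelial factor, lay between 9.63 and 9.97 in all lines and *Trp63*, the regulator of basal keratins, between 6.43 and 6.51. The median was 0.07. *Foxa1* did not pass with the unmoderated test, with puromycin as a covariate or in the fits that lacked a control line. After another quantile normalization *Sp1* did not pass, and without H3 4 of these factors were lower, while without H4 5 were higher and 2 lower. Of 16 other intermediate filament genes none was higher and 2 were lower, both nuclear lamins, with *Lmnb1* at -0.92 (standard error 0.20) and *Lmnb2* at -0.39 (standard error 0.14). *Vim* had a log2 difference of -0.06 (standard error 0.05). The median of these genes was 0.06. Without H4 none of them was lower and 3 were higher, without the scrambled line 3 were lower, and without H3, H5 or the untransduced line 1 was. Of 11 measured leukocyte markers 1 was higher, *Csf1r*, at 5.54 in H3 and 5.40 in H4 against 5.26 to 5.30, and of 12 fibroblast and endothelial markers none passed in either direction. Their medians were 0.05 and 0.09. Without H4 6 markers of each list were higher, and *Csf1r* did not pass in the fits that lacked a control line. None of the lists had a gene past the adjusted threshold.

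The genes whose profiles over the 5 lines were most like those of the 3 most variable keratins were found by the root mean square difference of centred log2 values, over 5 lines only. For *Krt8* they were *Tada3*, *Ube2t* and *Cfap20*, at 0.02 to 0.03. For *Krt6a* they were *Synpo2l*, *Zp4-ps* and *Ccdc153*, at 0.01 each. For *Krt19* the nearest genes, *Ly6g*, *Wee1* and *Pif1*, were farther off, at 0.15 to 0.16. *Wee1*, a kinase that holds back mitosis, had 9.60 (H3) and 8.94 (H4) against 9.80 (H5), 9.86 (scrambled) and 10.09 (untransduced), so that H4 was the lowest and the untransduced cells the highest line, as for *Krt19*.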

How the data were processed

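Expression values of 5 lines of 6DT1 cells were used, grouped by the *Arid4b* level in the labels. The authors normalized the arrays in Partek Genomics Suite, with RMA named in the submitters' processing notes, and deposited log2 expression values of 35556 probe sets. Software versions and the annotation file were not given in the sources used here. RMA is meant to equalize the arrays, so changes shared by all genes may not be seen. The deposited values still differed between arrays. The H3 array had a log2 median of 6.35 and an SD of 2.25. In the other lines the medians were 6.24 to 6.25 and the SDs 2.29 to 2.30. The cause of this offset was not tested. The platform annotation listed 23410 probe sets, of which 21789 had 1 symbol and 1621 had several, and 12146 were unnamed here. Gene IDs of 21698 were found in a RefSeq table of GRCm38.p6, used for names. The probe set of highest mean was taken for each of 19938 genes.

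Knockdown and control lines were compared by lmFit and eBayes (limma 3.58.1, R 4.3.3, prior degrees of freedom 1.58, 3 residual) over all genes with Benjamini-Hochberg adjustment. The step was tested on simulated data. The keratins and gene lists were chosen with earlier results of these data known. Named genes were the 10 keratins, *Arid4b*, up to 4 genes of each list (6 of the other keratins) with the largest differences past an unadjusted p under 0.05, the 3 nearest profiles of the 3 keratins of widest range, and marker genes. *Vim*, *Gata3*, *Klf5*, *Krt33b*, *Cd14* and *Col1a1* were named after their values had been seen. Listed genes without a probe set of 1 symbol were not analysed here. The alternatives were an unmoderated test, trend and robust options, median subtraction, a second quantile normalization, a filter that drops the dimmest 1 in 3 genes, averaged probe sets, array weights, a puromycin covariate and fits lacking 1 line. Figures were drawn with matplotlib 3.10.9.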

Additional observations from a re-analysis of the deposited data

How the results depend on the processing

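No keratin of the 10 passed the unadjusted threshold under the unmoderated test, the trend and robust options, the filter on low values, averaged probe sets, array weights, puromycin as a covariate or without any of the control lines. The count of lower keratins was 2 with the array medians subtracted (*Krt8* and *Krt17*) and 1 after another quantile normalization (*Krt17*), and 0 to 1 without each line in turn, the 1 being *Krt8* without H3. The count of higher keratins was 0 to 2 without each line in turn, the 2 being *Krt5* and *Krt15* without H4. A fit with 1 knockdown line takes its spread from the controls alone. The filter on low values removed *Krt20*, *Krt5* and *Krt17*. Puromycin as a covariate gives the estimates of the fit without the untransduced line, the one unselected line. Over all genes 866 were higher and 1517 lower. The count of higher genes was 509 with the array medians subtracted, 1300 after another quantile normalization, 382 with array weights, 508 with puromycin as a covariate, and 408 to 4901 without each line in turn (4901 without H4, 1370 without H3, 408 without H5). The count of lower genes was 835 with the unmoderated test, 905 with array weights, 1011 with puromycin as a covariate, and 776 to 1986 without each line in turn (776 without H5). The cause of these changes in counts was not tested. The sign of dim keratins turned in some fits, none of which called them, and the cause was not tested either. With the array medians subtracted the log2 differences were -0.017 for *Krt7*, -0.012 for *Krt20*, -0.0037 for *Krt14* and -0.0098 for *Krt6a*. After another quantile normalization they were -0.0016 for *Krt20*, -0.0067 for *Krt14* and -0.0037 for *Krt6a*, and with puromycin as a covariate -0.00025 for *Krt7*. Without each line in turn they ran from -0.082 (without H3) to 0.14 (without H4) for *Krt7*, -0.013 (without H3) to 0.097 (without H4) for *Krt14*, -0.098 (without H3) to 0.169 (without H4) for *Krt6a* and -0.0064 (without H5) to 0.056 (without the scrambled line) for *Krt20*. No paired analysis was possible because the labels give the lines no shared replicate numbers.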
